A study of Rattus norvegicus with 16 samples.

Results

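Of 32 macrophage and monocyte genes listed for this account, 30 had a row under that symbol in the count table of rat kidney cortex, which held 32623 genes, and each had a single row. No level of Timd4 or Mpeg1 was analysed here. The low-count filter kept 27 of the 30, and Cd163, Vsig4 and Marco, which had too few counts for a test, are given as counts. Of the 27, 26 also pass the filter when the old male libraries are left out, and Siglec1 does not. Because Siglec1 was tested only through the old males, where it is high, it had to differ, so the main counts and medians are also given without it. The genes were grouped by role into 7 classes: growth factor receptors and transcription factors of the lineage, resident markers, scavenging and pattern receptors, Fc receptors with their signalling adaptors, subunits of the phagocyte NADPH oxidase, pan-leukocyte genes, and intracellular effectors.

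RNA sequencing covered 16 libraries of Rattus norvegicus, 4 each from old males, young males, old females and young females. All groups share the genotype label Homo, which the labels do not explain, and no treatment, and ages are given only as old and young, with no strain in the labels. Kidney cortex is named in the study's design text, and the labels give kidney. The study's title sets ageing and sex differences beside the cGAS-STING pathway and diabetic kidney disease, and no label marks an animal as diabetic. Nothing in the labels says whether the 4 libraries of a group came from separate animals, so a p-value here reflects spread among libraries, which may be technical.

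Kidney macrophages descend from yolk sac and fetal precursors and from blood monocytes, and depend on signals through the receptor CSF1R and on the transcription factor PU.1. They clear debris, apoptotic cells and immune complexes through scavenger and Fc receptors, and the receptors without a signalling tail of their own pass their signal through adaptor proteins that carry an immunoreceptor tyrosine-based activation motif (ITAM). Phagocytes also carry a membrane NADPH oxidase, built around a heme-binding catalytic subunit, that makes superoxide when cytosolic subunits join it. Whole cortex was sequenced here, so fewer cells of a type and less RNA per cell cannot be told apart.

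Total counts per library were 10827485 to 35957516 in old males, 13416132 to 20274749 in young males, 14269100 to 17048319 in the old and 11570788 to 14736236 in the young female libraries. Library identifiers begin with OP in old male replicates 1, 2 and 3 and in old female replicates 1 and 2, and with DS in all others, the young included. Old male replicate 4, the shallowest library, was thus the one DS library of its group. It had the highest level in its group for 24 of the 27 tested genes, while replicate 1 had the lowest for 23. How often this order held over all genes tested was not counted. The fit was repeated with each library left out, with the prefix as a covariate and with DS libraries alone. DS libraries alone leave 1 old male library, which is assumed to vary like the other groups. Both tested genes of chromosome Y were higher in males than in females at either age. The defining macrophage gene Cd68 was counted in all 16 libraries, at 1.63 CPM (counts scaled to library size with TMM factors) or more.

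On a scale per length, with the RPKM values (read counts scaled to gene length and library size) that the authors deposited, the genes spanned a wide range of levels. Lyz2, which encodes the secreted antibacterial enzyme lysozyme, had a mean of 452 RPKM in old males, against 92.5 RPKM in young males, and of 85.7 RPKM in old females, against 107 RPKM in young females. Cyba, the small membrane subunit of NADPH oxidases, had 161 RPKM in old males, against 105 RPKM in young males, and 80.3 RPKM in old females, against 59.6 RPKM in young females. Lyz2 was the highest of the 30 in old males, old females and young females, and Cyba was the highest in young males. The signalling adaptors Fcer1g and Tyrobp followed in the same order in all 4 groups, with 58.3 and 53.2 RPKM in old males.

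In all, 11 genes had a group mean over 10 RPKM in old males, against 4 in each of the other groups. Means under 1 RPKM were found for 5 genes in old males and 10 in young males, and for 11 genes in old and 10 in young females. Csf2ra, the ligand-binding chain of the GM-CSF receptor, was the fifth in young males, old females and young females, at 5.82, 5.51 and 5.66 RPKM. In old males it was at 11.028 RPKM and stood below Laptm5, Irf8, Csf1r, Aif1 and Cybb. Several resident markers lay at the bottom of the order in every group, with Siglec1 at 0.607 RPKM in old males and 0.0636 RPKM in young males.

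**Figure D1:**
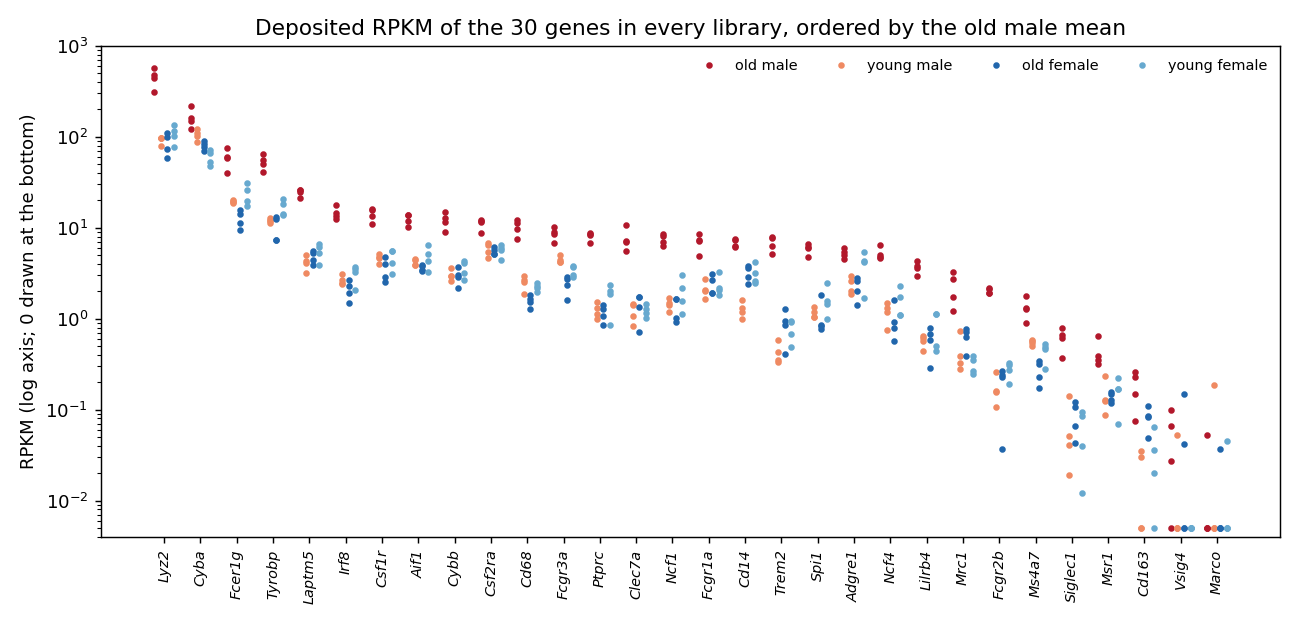
Deposited RPKM (log axis) of the 30 genes in each of the 16 libraries, ordered by the old male mean, with a value of 0 drawn at the bottom of the axis. Lyz2 and Cyba lead in every group, and the old male points lie above the other 3 groups for most genes.

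Age was compared first in males. In old males 26 of the 27 tested genes were higher than in young males (edgeR quasi-likelihood test, Benjamini-Hochberg adjusted p under 0.05 over 14390 genes), none was lower by edgeR, DESeq2 or limma-voom or, in edgeR, at an unadjusted p under 0.05, and Cyba did not pass. Of all genes tested, 25.3% were called higher in this comparison. The median log2 fold change of the 27 was 1.81, with a range of 0.29 to 3.67, beside a median of -0.0028 over all genes tested. For 26 genes, Siglec1 among them, every old male library lay above every young male library, which was so for 23.7% of all genes tested. Without Siglec1, 25 of 26 were higher, with a median of 1.79. The summed level of the 27 was 806 to 1307 CPM in old males, against 353 to 365 CPM in young males. Siglec1 made up at most 4.96 CPM of that sum in any old male library. The count of genes called higher was 25 to 27 in every other setting tried, apart from 22 when a fold of at least 2 was also asked for.

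**Figure D2:**
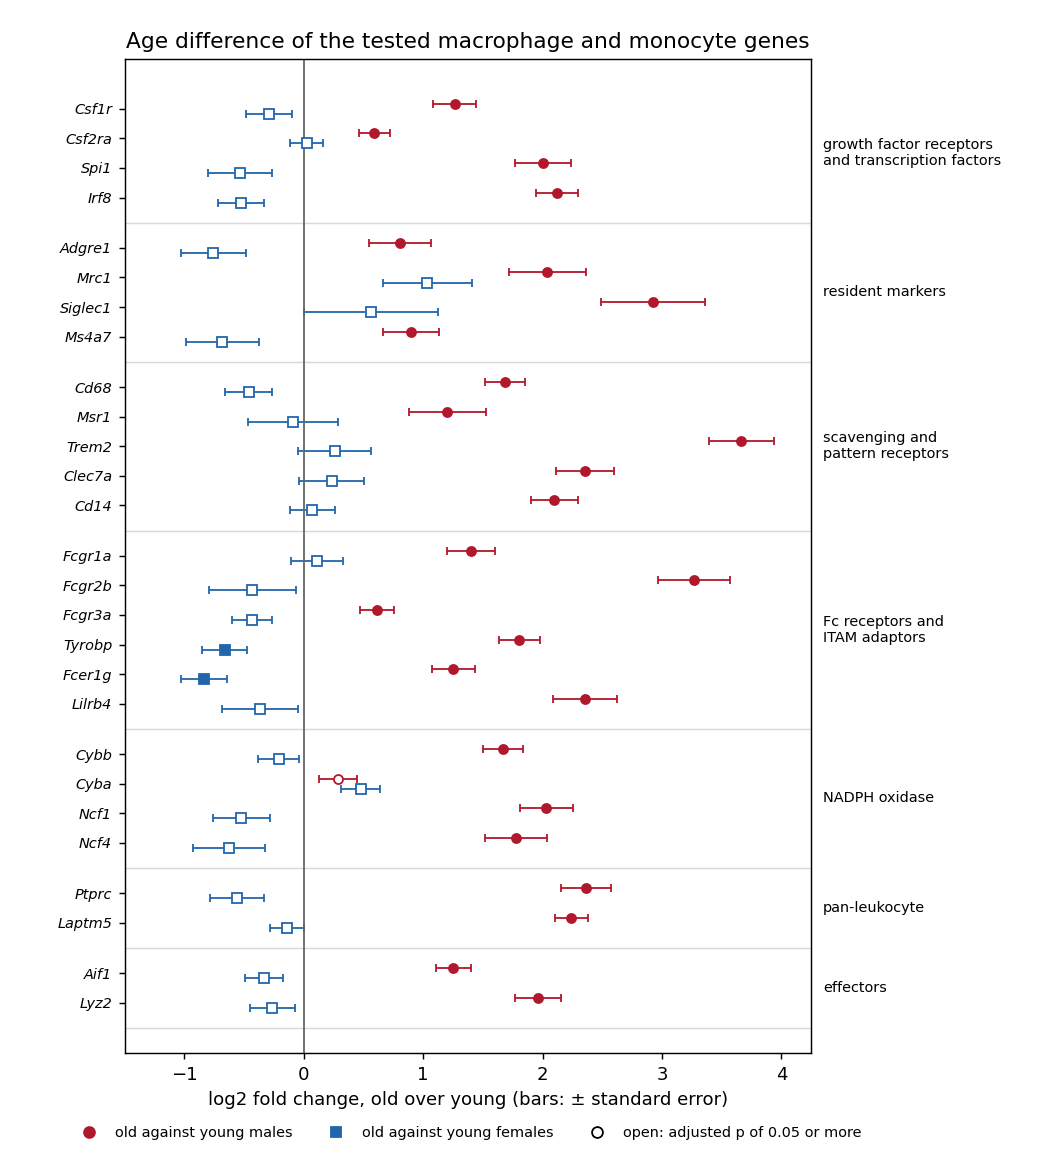
Log2 fold change (old over young) of the 27 tested genes by class, with standard errors, in males (red circles) and females (blue squares); open symbols did not pass an adjusted p of 0.05. In males the values run from 0.29 for Cyba to 3.67 for Trem2, and in females from -0.83 for Fcer1g to 1.03 for Mrc1.

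The promoters of the genes were read because most of the tested genes were higher together in old males and the list includes the gene of PU.1, a transcription factor whose binding sites contain the letters GAGGAA. RefSeq (build GRCr8, which is not the build of the counts) gave a promoter for 23 of the 32 genes, of which 5 (Cd163, Timd4, Vsig4, Marco and Mpeg1) have no tested level, and the 250 bases before each gene start were searched on both strands. GAGGAA was found in 14 of the 23 promoters (60.9%), against 23.3% of all 33469 rat promoters of the same length. The longer form GAGGAAGT, which contains GAGGAA, was found in 2 of the 23 (8.7%), Csf2ra and Fcgr3a, against 2.04% of all. The composite ETS-IRF element, which joins a PU.1 site to one of interferon regulatory factors and can overlap GAGGAA, was found in 5 of the 23 (21.7%), against 2.48% of all, and 2 of the 5, Timd4 and Marco, have no tested level. The last 120 bases before the gene start are shown for the gene with the largest male change (Trem2), for the lysosomal marker Cd68, for a receptor with the longer form (Csf2ra), for the gene with the smallest p (Laptm5) and for the membrane subunits of the oxidase that changed (Cybb) and that did not pass (Cyba). Capitals mark GAGGAA or, where it lies on the other strand, TTCCTC, and all are written 5′ to 3′ in the direction of the gene.
Trem2 promoter, chr9:20151780-20151899, minus strand: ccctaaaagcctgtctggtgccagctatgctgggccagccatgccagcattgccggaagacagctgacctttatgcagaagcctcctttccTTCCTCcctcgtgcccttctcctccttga
Cd68 promoter, chr10:54882442-54882561, minus strand: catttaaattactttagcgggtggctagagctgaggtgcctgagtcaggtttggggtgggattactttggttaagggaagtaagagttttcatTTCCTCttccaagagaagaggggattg
Csf2ra promoter, chr14:118118-118237, minus strand: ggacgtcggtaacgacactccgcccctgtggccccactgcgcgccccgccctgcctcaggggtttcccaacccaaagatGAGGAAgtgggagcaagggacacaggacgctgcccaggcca
Laptm5 promoter, chr5:148371760-148371879, plus strand: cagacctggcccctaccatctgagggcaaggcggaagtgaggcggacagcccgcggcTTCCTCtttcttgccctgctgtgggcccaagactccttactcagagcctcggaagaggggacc
Cybb promoter, chrX:16065066-16065185, minus strand: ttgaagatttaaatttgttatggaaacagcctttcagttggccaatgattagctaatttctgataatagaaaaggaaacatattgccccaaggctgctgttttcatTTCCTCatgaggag
Cyba promoter, chr19:67404215-67404334, minus strand: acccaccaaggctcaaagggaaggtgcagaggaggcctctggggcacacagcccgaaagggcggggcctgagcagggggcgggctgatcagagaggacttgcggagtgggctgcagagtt

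The match lay 29 bases before the gene start in Trem2, 27 in Cd68, 41 in Csf2ra, 63 in Laptm5 and 14 in Cybb. Cyba had no match to any of the 3 motifs in its 250 bases, and neither had Irf8, Ms4a7 or Ncf1, which were higher in old males. These letters are a description of the sequence and say nothing of whether the factor is bound in these kidneys.

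The genes that specify the lineage were all higher in old males. Spi1, which encodes the transcription factor PU.1, was at 8.58, 10.6, 10.5 and 11.7 CPM in old males, against 2.89, 2.38, 2.69 and 2.27 CPM in young males (log2 fold change 2.003, SE 0.24, adjusted p = 3.70e-06). Irf8, a transcription factor of monocytes and dendritic cells, was at 32.6, 33.7, 36.2 and 45.9 CPM in old males, against 7.57, 10.3, 8.76 and 7.47 CPM in young males (log2 fold change 2.12, SE 0.18, adjusted p = 1.08e-07). Both pairs of groups stood apart without overlap. Csf1r, the receptor for the macrophage growth factors CSF1 and IL-34, was at 40.0, 55.3, 47.0 and 56.8 CPM in old males, against 20.4, 21.5, 23.3 and 17.5 CPM in young males (log2 fold change 1.26, SE 0.18, adjusted p = 2.51e-05). Csf2ra differed by the smallest amount among the 26, with 11.3, 14.5, 14.1 and 15.01 CPM in old males, against 10.3, 7.55, 10.2 and 8.20 CPM in young males (log2 fold change 0.59, SE 0.13, adjusted p = 0.00124). Its lowest old male library, replicate 1, lay just above the highest young male library.

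In females the same 4 genes did not pass the test in the fit of all libraries. Spi1 was at 1.56, 1.79, 3.52 and 1.69 CPM in old females, against 2.75, 4.67, 3.12 and 1.98 CPM in young females (log2 fold change -0.54, SE 0.27, adjusted p = 0.276). Without old female replicate 3 it was lower in old females (log2 fold change -0.88, adjusted p = 0.0480). Csf1r was at 10.5, 12.2, 18.8 and 16.5 CPM in old females, against 21.05, 21.3, 16.5 and 12.4 CPM in young females (log2 fold change -0.29, SE 0.19, adjusted p = 0.432). For both genes the groups overlapped, and old female replicate 3 was the highest of its group. Irf8 ranged over 4.38 to 7.52 CPM in old females, against 5.99 to 10.2 CPM in young females, with a log2 fold change of -0.53 (SE 0.19, adjusted p = 0.121), and Csf2ra over 7.11 to 8.77 CPM in old females, against 6.20 to 8.61 CPM in young females, with 0.02 (SE 0.14, adjusted p = 0.952).

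Among the resident markers, 4 of 7 could be tested. Apart from Siglec1 all 3 were higher in old males, with a median log2 fold change of 0.90. Siglec1, the sialic acid receptor CD169 of tissue macrophages, was at 2.44, 4.13, 4.96 and 3.96 CPM in old males, against 1.10, 0.159, 0.337 and 0.406 CPM in young males. Its log2 fold change of 2.93 is a description, since without the old male libraries the gene would not have been tested. Mrc1, the mannose receptor CD206, was at 5.80, 7.88, 12.5 and 15.4 CPM in old males, against 1.58, 1.99, 2.30 and 4.22 CPM in young males (log2 fold change 2.04, SE 0.32, adjusted p = 6.71e-05). The old male spread was wide for Mrc1, with replicates 3 and 4 well above replicates 1 and 2. Adgre1, which encodes the adhesion receptor F4/80, was at 15.02, 15.5, 13.1 and 17.6 CPM in old males, against 9.15, 7.63, 11.001 and 6.74 CPM in young males (log2 fold change 0.81, SE 0.26, adjusted p = 0.0165). That call was lost with DS libraries alone (log2 fold change 1.003, adjusted p = 0.0723) and without young male replicate 4 (0.71, adjusted p = 0.0504). Ms4a7, a multi-span membrane protein of macrophages, ranged over 1.46 to 2.80 CPM in old males, against 1.03 to 1.18 CPM in young males, with a log2 fold change of 0.90 (SE 0.23, adjusted p = 0.00419).

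Between old and young females none of the 4 resident markers passed. Mrc1 was at 3.39, 2.12, 3.73 and 4.17 CPM in old females, against 1.23, 1.33, 1.89 and 2.04 CPM in young females (log2 fold change 1.03, SE 0.37, adjusted p = 0.120). Each old female library lay above each young female library, though the test was not passed. Among other settings, its adjusted p fell under 0.05 with DESeq2 (log2 fold change 1.04, adjusted p = 0.0488) and with the prefix as a covariate (1.34, adjusted p = 0.0454), and the authors' deposited table lists it with a log2 fold change of -1.03, young over old females, at a false discovery rate of 0.00633. Adgre1 ran the other way, with 4.74, 6.86, 9.04 and 8.70 CPM in old females, against 13.0, 17.2, 14.3 and 5.52 CPM in young females (log2 fold change -0.76, SE 0.27, adjusted p = 0.115). The groups overlapped through young female replicate 4, the lowest of its group, and without that library Adgre1 was lower in old females (-1.01, adjusted p = 0.00737). Siglec1 ranged over 0.320 to 0.907 CPM in old females, against 0.0834 to 0.651 CPM in young females, with a log2 fold change of 0.56 (SE 0.56, adjusted p = 0.633). Ms4a7 ranged over 0.320 to 0.636 CPM in old females, against 0.508 to 0.953 CPM in young females, with -0.68 (SE 0.31, adjusted p = 0.227).

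Cd163, the receptor that takes up haptoglobin-haemoglobin complexes, was too sparse for the test, with 66 counts summed over the 4 old male libraries, 4 over the young male, 22 over the old female and 7 over the young female libraries. The ratio of pooled CPM was 9.16 for old over young males, with an exact 95% interval of 3.41 to 34.6, and 2.81 for old over young females, with an interval of 1.16 to 7.78. These intervals cover counting error only, not the spread between libraries. Its level was above 0 in all 4 old male and all 4 old female libraries, and at 0 in 2 young male libraries and 1 young female library. Vsig4, a complement receptor of tissue macrophages, had 7 counts in old males and 1 in young males, and 4 counts in old and 0 in young females. The floor of 3 counts is 0.0552 CPM over the 4 young female libraries, and the exact 95% interval of their 0 counts reaches 0.0679 CPM.

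The scavenging and pattern receptors held the largest change. Trem2, whose promoter is shown above, is a receptor for lipids and lipoproteins that signals through the adaptor TYROBP, and was at 5.46, 7.91, 6.39 and 8.16 CPM in old males, against 0.413, 0.477, 0.561 and 0.731 CPM in young males (log2 fold change 3.67, SE 0.27, adjusted p = 4.29e-08). It was at 0.495, 1.15, 1.45 and 1.03 CPM in old females, against 1.01, 0.751, 0.580 and 1.09 CPM in young females (log2 fold change 0.26, SE 0.31, adjusted p = 0.696). The old male libraries stood above the other 12 libraries, and the female groups overlapped. Cd68, a glycoprotein of the lysosomes of phagocytes, was at 8.53, 12.4, 10.5 and 13.4 CPM in old males, against 2.48, 3.66, 3.76 and 3.98 CPM in young males (log2 fold change 1.69, SE 0.16, adjusted p = 4.99e-07). In old females it was at 2.12, 1.99, 2.21 and 1.63 CPM, against 2.604, 2.75, 3.12 and 2.45 CPM in young females (log2 fold change -0.46, SE 0.20, adjusted p = 0.195), and each old female library lay below each young female library without the test being passed.

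Cd14, a co-receptor for bacterial lipopolysaccharide, was at 9.60, 10.9, 9.48 and 11.3 CPM in old males, against 2.41, 3.18, 1.91 and 2.19 CPM in young males (log2 fold change 2.10, SE 0.20, adjusted p = 3.57e-07). It was at 4.17, 5.13, 6.35 and 6.29 CPM in old females, against 4.19, 4.003, 5.51 and 7.08 CPM in young females (log2 fold change 0.07, SE 0.19, adjusted p = 0.878). Young male libraries were lower than all others, and the female groups overlapped. Clec7a, the receptor dectin-1 for fungal cell wall glucans, ranged over 13.0 to 24.3 CPM in old males, against 2.41 to 4.13 CPM in young males, and had a log2 fold change of 2.35 (SE 0.24, adjusted p = 8.47e-07) in males and 0.23 (SE 0.27, adjusted p = 0.687) in females. Msr1, the class A scavenger receptor for modified lipoproteins, ranged over 1.71 to 3.38 CPM in old males, against 0.550 to 1.59 CPM in young males, and had 1.20 (SE 0.33, adjusted p = 0.00557) in males and -0.09 (SE 0.38, adjusted p = 0.927) in females. Marco, a further class A scavenger receptor, had 3 counts in old males and 4 in young males, and 1 count each in old and young females. The table lists it on chromosome 16 while RefSeq GRCr8 has Marco on chromosome 13, so the row may not be that gene.

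**Figure D3:**
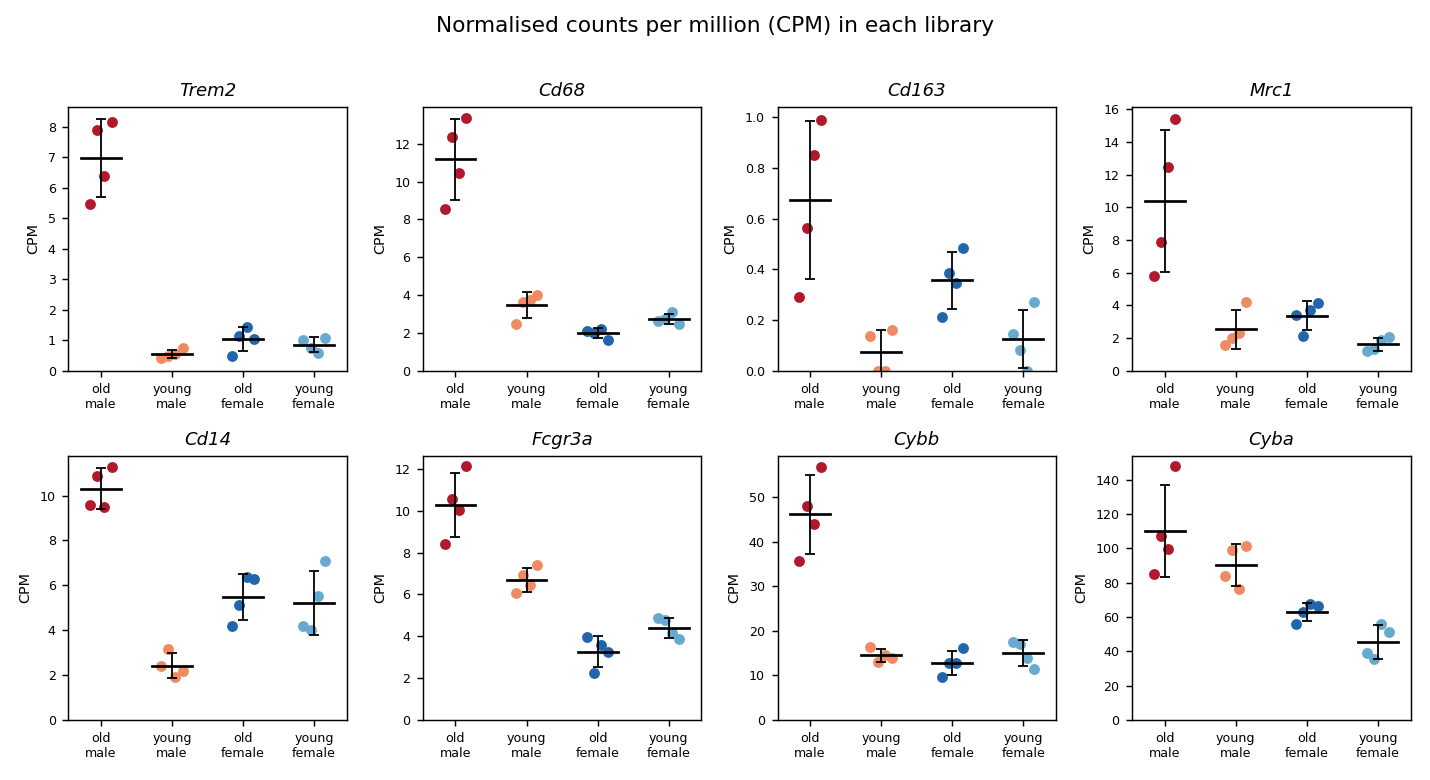
CPM in each library for 8 genes, with old males, young males, old females and young females from left to right; black bars give the mean and SD of 4 libraries. The old male libraries lie above the young male libraries for each gene shown except Cyba, whose male groups overlap.

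All 6 Fc receptors and adaptors were higher in old males. Fcgr2b, the inhibitory receptor for immunoglobulin G, was at 6.53, 6.20, 7.13 and 7.01 CPM in old males, against 0.619, 1.11, 0.449 and 0.650 CPM in young males (log2 fold change 3.27, SE 0.30, adjusted p = 3.00e-07). Fcgr3a, an activating receptor for the same ligand, was at 8.39, 10.6, 10.02 and 12.1 CPM in old males, against 6.05, 6.91, 6.45 and 7.39 CPM in young males (log2 fold change 0.61, SE 0.15, adjusted p = 0.00218). The groups stood apart for both genes, with a far wider gap for Fcgr2b. The 2 receptors have close relatives among the Fc receptor genes, and how the authors' counting split shared reads is not given in the sources used here. Fcgr1a, the high-affinity receptor for immunoglobulin G, had a log2 fold change of 1.40 (SE 0.20, adjusted p = 2.42e-05), and Lilrb4, an inhibitory receptor of a multigene family with the same uncertainty, one of 2.36 (SE 0.27, adjusted p = 2.63e-06).

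Between old and young females none of the 4 receptors passed. Fcgr2b was at 0.141, 1.03, 0.828 and 0.907 CPM in old females, against 1.08, 1.17, 0.725 and 1.02 CPM in young females (log2 fold change -0.43, SE 0.36, adjusted p = 0.551). Fcgr3a was at 3.96, 2.24, 3.59 and 3.26 CPM in old females, against 4.85, 4.75, 4.14 and 3.88 CPM in young females (log2 fold change -0.43, SE 0.17, adjusted p = 0.152). The groups overlapped for both, and old female replicate 1 was the lowest for Fcgr2b, with 2 counts. Fcgr1a had a log2 fold change of 0.11 (SE 0.22, adjusted p = 0.838) and Lilrb4 one of -0.37 (SE 0.32, adjusted p = 0.568) in females.

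The 2 adaptors were among the most abundant genes of the list. Tyrobp was at 22.9, 29.5, 26.8 and 35.3 CPM in old males, against 8.25, 8.34, 8.48 and 7.47 CPM in young males (log2 fold change 1.81, SE 0.18, adjusted p = 4.99e-07). Fcer1g, the common gamma chain of Fc receptors, was at 23.2, 33.0, 32.1 and 42.8 CPM in old males, against 12.9, 13.8, 14.3 and 13.8 CPM in young males (log2 fold change 1.25, SE 0.18, adjusted p = 2.64e-05). Old male replicate 4 was the highest library for both. In old females Tyrobp was at 4.52, 4.68, 7.73 and 7.86 CPM, against 10.4, 12.01, 8.63 and 8.45 CPM in young females (log2 fold change -0.66, SE 0.19, adjusted p = 0.0477). Fcer1g was at 6.15, 7.44, 9.87 and 9.13 CPM in old females, against 15.8, 18.8, 12.6 and 11.1 CPM in young females (log2 fold change -0.83, SE 0.19, adjusted p = 0.0194). Each old female library lay below each young female library for both adaptors.

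Of the oxidase subunits, 3 of 4 were higher in old males. Cybb, the catalytic subunit, was at 35.6, 48.0, 44.0 and 56.9 CPM in old males, against 16.4, 13.0, 14.5 and 13.8 CPM in young males (log2 fold change 1.67, SE 0.17, adjusted p = 6.03e-07). Cyba, its membrane partner, which also pairs with the oxidase NOX4 of kidney tubules, was at 85.3, 107, 99.7 and 148 CPM in old males, against 83.6, 99.2, 76.2 and 101 CPM in young males (log2 fold change 0.29, SE 0.16, adjusted p = 0.144). The Cybb groups stood apart, and the Cyba groups overlapped, with old male replicate 4 the highest. Among other settings, Cyba passed in males with library totals alone (log2 fold change 0.62, adjusted p = 0.00267), with the prefix as a covariate (0.54, adjusted p = 0.0172), with DS libraries alone (0.71, adjusted p = 0.0167) and without old male replicate 1 (0.39, adjusted p = 0.0487). Library totals alone moved the median of all genes to 0.32 in this comparison.

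The cytosolic subunits followed Cybb. Ncf1, the organizer subunit p47phox, was at 16.5, 20.3, 17.5 and 21.8 CPM in old males, against 5.23, 3.97, 4.83 and 4.47 CPM in young males (log2 fold change 2.03, SE 0.22, adjusted p = 1.46e-06). Ncf4, the subunit p40phox, was at 6.34, 6.57, 6.22 and 8.57 CPM in old males, against 2.41, 2.30, 2.02 and 1.22 CPM in young males (log2 fold change 1.78, SE 0.26, adjusted p = 3.27e-05). Neither pair of groups overlapped. In old females Cybb was at 9.54, 12.8, 12.8 and 16.2 CPM, against 17.6, 17.0, 13.9 and 11.4 CPM in young females (log2 fold change -0.21, SE 0.17, adjusted p = 0.538), with overlapping groups. Cyba was at 55.9, 62.8, 67.6 and 66.2 CPM in old females, against 38.8, 35.6, 55.9 and 51.0 CPM in young females (log2 fold change 0.48, SE 0.16, adjusted p = 0.102). Among other settings, it passed there with the prefix as a covariate (0.66, adjusted p = 0.0318) and without old male replicate 4 (0.47, adjusted p = 0.0429). Ncf1 ranged over 2.76 to 4.84 CPM in old females, against 3.27 to 8.34 CPM in young females, with a log2 fold change of -0.52 (SE 0.24, adjusted p = 0.233), and Ncf4 had -0.63 (SE 0.30, adjusted p = 0.258).

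Genes shared with other leukocytes and the intracellular effectors were also higher in old males. Ptprc, which encodes the common leukocyte antigen CD45, was at 31.3, 38.0, 37.4 and 39.2 CPM in old males, against 7.15, 6.60, 8.87 and 5.44 CPM in young males (log2 fold change 2.36, SE 0.21, adjusted p = 2.50e-07). Laptm5, a lysosomal membrane protein of blood cells, was at 45.3, 50.7, 53.9 and 54.3 CPM in old males, against 10.9, 8.66, 10.9 and 12.8 CPM in young males (log2 fold change 2.24, SE 0.14, adjusted p = 1.02e-08). The 4 old male libraries of Laptm5 lay close together and far from the young male libraries. Lyz2 was at 341, 497, 466 and 611 CPM in old males, against 123, 109.8, 132 and 126 CPM in young males (log2 fold change 1.96, SE 0.20, adjusted p = 6.40e-07). Aif1, the cytoskeletal protein IBA1 used to stain macrophages and microglia, ranged over 17.0 to 22.4 CPM in old males, against 7.72 to 9.46 CPM in young males, with a log2 fold change of 1.25 (SE 0.15, adjusted p = 3.51e-06). Lysozyme has near-identical gene copies in rodents, and how the counting split reads between them is unknown. In females the log2 fold changes were -0.56 for Ptprc, -0.14 for Laptm5, -0.26 for Lyz2 and -0.34 for Aif1, and none passed.

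Resident, scavenging and oxidase genes were then set side by side. The median log2 fold change of old over young males was 1.47 for the 4 tested resident markers, 2.10 for the 5 tested scavenging and pattern receptors and 1.72 for the 4 oxidase subunits. Within each class the values spread widely, over 0.81 to 2.93 for resident, 1.20 to 3.67 for scavenging and 0.29 to 2.03 for oxidase genes, so the classes overlapped. Without Siglec1 the resident median was 0.90, over 0.81 to 2.04. No test was made between classes, because their genes are not replicates. Between old and young females the class medians were -0.06 for resident, 0.07 for scavenging and -0.37 for oxidase genes, and the resident median without Siglec1 was -0.68.

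Each library was also given the median, over the genes of a class, of its CPM divided by the mean of the young group of the same sex. Scavenging genes had medians of 3.87 to 4.66 in the 4 old male libraries and 0.776 to 1.22 in the old female libraries. Oxidase genes had 2.83 to 4.12 in old male and 0.630 to 0.976 in old female libraries. Resident markers had 2.02 to 4.34 in old male and 0.666 to 1.46 in old female libraries, and without Siglec1 they had 1.74 to 2.57 in old male and 0.549 to 0.823 in old female libraries. In all 3 classes, with Siglec1 included, the DS library of the old males, replicate 4, was the highest of its group. Over all 27 genes, Siglec1 among them, its median was 4.34, beside 2.77, 3.57 and 3.29 in replicates 1, 2 and 3.

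**Figure D4:**
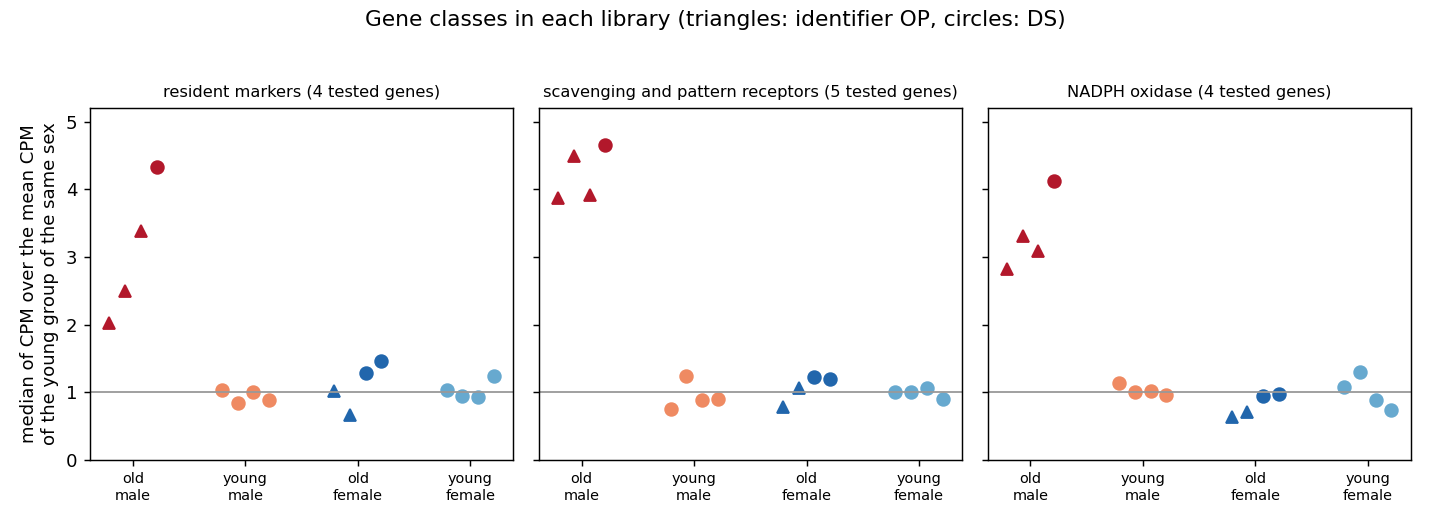
Median of CPM over the mean of the young group of the same sex, for resident, scavenging and oxidase genes in each library; triangles mark identifiers with OP and circles DS, and the grey line marks 1. With Siglec1 among the resident genes, old male libraries lie between 2.02 and 4.66, and old female libraries between 0.630 and 1.46.

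Ratios between genes within a library, which do not depend on scaling, differed between groups for some pairs. Trem2 over Cd68 was 0.610 to 0.640 in old males, against 0.130 to 0.184 in young males, and 0.233 to 0.656 in old females, against 0.186 to 0.444 in young females. The male ranges stood apart, and the female ranges overlapped through old female replicate 1, at 0.233. Old female replicates 2, 3 and 4 were at 0.581, 0.656 and 0.630, above the young females and near the old male values. Fcgr2b over Fcgr3a was 0.578 to 0.779 in old males, against 0.0696 to 0.161 in young males, and 0.0357 to 0.457 in old females, against 0.175 to 0.263 in young females. Every old male library lay above every other library in this ratio. Cyba over Cybb was 2.24 to 2.61 in old males, against 5.09 to 7.61 in young males, and 4.09 to 5.86 in old females, against 2.09 to 4.49 in young females. Old male libraries lay below all young male and old female libraries in this ratio, within the range of the young females. Mrc1 over Cd68 was 0.637 to 1.19 in old males, against 0.543 to 1.06 in young males, and 1.06 to 2.56 in old females, against 0.472 to 0.833 in young females. Here the male ranges overlapped and the female ranges stood apart. Ncf1 over Cybb was 0.384 to 0.464 in old males, against 0.305 to 0.332 in young males. These ratios are descriptions and were not tested.

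**Figure D5:**
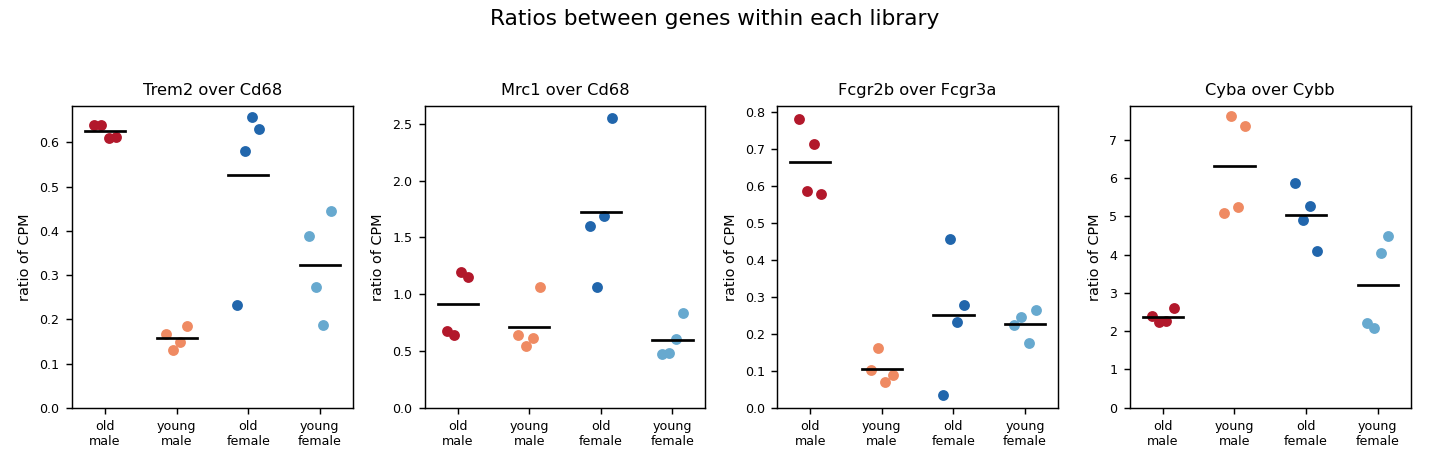
Ratio of CPM between pairs of genes in each library, with old males, young males, old females and young females from left to right; the black line is the group mean of 4 libraries. Old male libraries are highest for Fcgr2b over Fcgr3a, at 0.578 to 0.779, and Mrc1 over Cd68 reaches its highest values in old females, at 1.06 to 2.56.

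Over the whole list, age was compared in females in the same fit. None of the 27 genes was called higher in old females by edgeR, where 2.54% of all genes tested were, with 2 higher at an unadjusted p under 0.05, 1 by DESeq2 and none by limma-voom. Tyrobp and Fcer1g were called lower, where 3.17% of all genes tested were. The other 25 did not pass, and the median log2 fold change was -0.34, with 8 genes positive and 19 negative. Groups without overlap were found for Mrc1, higher in old females (5.61% of all genes tested were), and for Cd68, Tyrobp and Fcer1g, lower in old females (5.46% of all genes tested were). The 2 calls did not hold in every setting: limma-voom called none of the 27, with 324 higher and 372 lower over all genes. With the prefix as a covariate both were lost, with Tyrobp at -0.42 (adjusted p = 0.104) and Fcer1g at -0.60 (adjusted p = 0.0611). That fit called 2 other genes higher in old females, Mrc1 at 1.34 and Cyba at 0.66, and 288 higher and 299 lower over all genes. With DS libraries alone the log2 fold changes were -0.33 for Tyrobp and -0.61 for Fcer1g, beside -0.66 and -0.83 with all libraries. That fit leaves 1 old male library, so only effect sizes are given and the 2 calls are not said to hold in it. Without old female replicate 3, 3 genes were lower in old females (Spi1, Tyrobp and Fcer1g). Without young female replicate 4, 6 genes were lower in old females (Irf8, Adgre1, Tyrobp, Fcer1g, Ptprc and Aif1). Without young female replicate 1, young female replicate 2, old female replicate 1 or old female replicate 2, none passed, and 1 passed without young female replicate 3, without any single young male library and without old male replicate 2 or 3. The number of calls over all genes changed with the libraries too. Without young female replicate 1 it was 131 higher and 177 lower in old females, and without young female replicate 4 it was 460 and 553. With all libraries it was 366 and 456. In the fit of all libraries 10 of the 27 were lower at an unadjusted p under 0.05.

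Young female replicate 4 had the lowest level of its group for 19 of the 27 genes, and young female replicate 2 the highest for 15. Both OP libraries of the old females lay below both DS libraries for 15 of the 27 genes and above them for 1. These orders of libraries were not counted over all genes tested, so they cannot be said to be particular to the 27. Markers of the inner medulla and urothelium, parts of the kidney outside the cortex, also varied between the female libraries. The summed level of the 10 such genes was 44.5, 68.7, 138 and 145 CPM in old females, against 268, 200.3, 112 and 392 CPM in young females, with young female replicate 4 the highest. Of 7 tested, 3 of these markers were lower in old females, where 3.17% of all genes tested were, and the other 4 did not pass. Upk3a and Krt5 had no count in old males. With the mean of these markers as a covariate, none of the 27 macrophage and monocyte genes passed between old and young females. Over all genes that fit called 32 higher and 12 lower in old females, beside 366 and 456 without the covariate, so none of the 27 is near that share. Between old and young males 26 of the 27 still passed, with 3582 genes higher and 3453 lower over all genes. The part of these markers in the female result was not tested.

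The age-by-sex contrast, the male age change less the female one, tests the difference between the sexes directly. It was positive and passed for 24 of the 27 genes, with a median of 2.12, where 19.4% of all genes tested were called higher. Without Siglec1 it passed for 23 of 26, with a median of 2.10. The largest values were those of Fcgr2b (log2 fold change 3.70, SE 0.48, adjusted p = 2.34e-05) and Trem2 (log2 fold change 3.41, SE 0.43, adjusted p = 1.73e-05). The 3 genes that did not pass were Mrc1 (log2 fold change 1.003, SE 0.50, adjusted p = 0.126), Msr1 (log2 fold change 1.29, SE 0.50, adjusted p = 0.0506) and Cyba (log2 fold change -0.19, SE 0.23, adjusted p = 0.547). Among other settings, Mrc1 passed with library totals alone (1.38), the prefix as a covariate (1.18), without young male replicate 4 (1.34) or without old male replicate 1 (1.21), and Msr1 passed with DESeq2 (1.31), without young male replicate 2 (1.64) and in 7 further settings. With the inner medulla markers as a covariate, 1783 of all genes were called higher, beside 2786 without it. Siglec1, Adgre1, Ms4a7 and Fcgr1a lost their call there, with values of 1.21, 1.40, 1.37 and 0.89. Siglec1 also lost it with DS libraries alone, and without young female replicate 1 or 4. Csf2ra lost it without young female replicate 1, young male replicate 2 or 4, or old female replicate 4, and Adgre1 with DS libraries alone.

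Sex was compared at each age, with the libraries of the age comparisons, so these values share samples with those above. All 27 genes were higher in old males than in old females, with a median log2 fold change of 2.15 and a range of 0.79 to 3.18. Of all genes tested, 25.5% were called higher there. Without Siglec1 the median over the 26 others was 2.11. For all 27, and so for the 26 others without Siglec1, every old male library lay above every old female library. The same held for 23.8% of all genes tested. With DS libraries alone 25 passed, and Adgre1 (log2 fold change 0.97, adjusted p = 0.131) and Cd14 (0.82, adjusted p = 0.0718) did not. Cd163 had a ratio of pooled CPM of 1.77 for old males over old females, with an exact 95% interval of 1.08 to 3.01.

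Between young males and young females 3 of the 27 genes passed in either direction, where 31.8% of all genes tested did. Cyba was higher in young males (log2 fold change 0.99, SE 0.16, adjusted p = 2.15e-04), as was Fcgr3a (log2 fold change 0.60, SE 0.16, adjusted p = 0.00768). Cd14 was lower in young males (log2 fold change -1.12, SE 0.21, adjusted p = 6.25e-04). The groups did not overlap for any of the 3, and young male Ms4a7 also lay above young female Ms4a7 in every library without passing (log2 fold change 0.50, SE 0.27, adjusted p = 0.180). Cyba had its lowest group mean in young females, and Cd14 in young males. The median of the 27 was -0.04. Without young female replicate 4 the count was 6 in place of 3, and with the inner medulla markers as a covariate it was 1. Over all genes that covariate fit called 812 higher and 709 lower in young males, beside 2308 and 2266 without the covariate.

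The authors' deposited table, which holds genes past a 2-fold difference at a false discovery rate below 0.05, lists 22 of the 30 genes among its 1974 for young over old males. In the authors' deposited table all 22 are negative, which is higher in old males, with Trem2 at -3.67. For old males over old females the authors' deposited table lists 24 of the 30 among 2019 genes, all positive. The authors' deposited table lists 1 of the 30, Mrc1, among 291 genes for young over old females. For young males over young females it lists 1, Cd14 at -1.13, among 1002 genes. The count table holds 32623 genes, so 1 of 30 in a list of 1002 is near the share over all its genes.

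Further genes of the pathways around the list were counted in the male age comparison. Of all 14390 genes tested, 25.3% were called higher and 3545 genes lower in old males. Between old and young females 2.54% were called higher and 3.17% lower in old females. Of 21 tested other macrophage genes, 20 were higher in old males and 1 did not pass, with Cd53 at 2.65 and Coro1a, an actin-binding protein of leukocytes, at 2.46 on the log2 scale, and in old females 1 was higher and 5 were lower. All 16 genes of ITAM signalling were higher in old males, among them the kinase Lyn at 0.96 and the adaptor Pik3ap1 at 1.31. Of 5 tested further oxidase genes, 3 were higher and 2 did not pass, with the GTPase Rac2 at 2.04 and the proton channel Hvcn1 at 2.65. Of 5 colony-stimulating factor ligands and receptor chains, 4 were higher and 1 lower in old males. The summed level of the 9 in the count table went the other way, at 261 to 276 CPM in old males, against 334 to 477 CPM in young males. Il34, a ligand of CSF1R, was at 0.85, and Csf2rb, the chain that pairs with CSF2RA, was the lower one at -1.05.

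The counts of the next lists stand beside 25.3% of all genes tested called higher and 3545 of 14390 called lower in old males. Of 8 tested genes of monocyte recruitment, 5 were higher in old males and 3 did not pass, with the chemokine Ccl7 at 4.78. Of 14 receptors and bridging proteins for apoptotic cells and scavenging, 10 were higher and 2 lower. The 2 with the smallest p were Havcr1 at 5.54, which is known as an injury marker of the proximal tubule, and Olr1 at 2.79, a receptor for oxidized lipoproteins. Of 15 lipid and lysosome genes of TREM2-bearing macrophages, 10 were higher and 2 lower, with Spp1 at 5.41 and Gpnmb at 4.42. The 15 summed to 15217 to 26263 CPM in old males, against 4460 to 5244 CPM in young males. That is far above the 806 to 1307 CPM of the 27 tested macrophage and monocyte genes in old males. Which cells this RNA came from was not tested. In old females 1 recruitment gene and 3 lipid and lysosome genes were lower than in young females, and the others of these 3 lists did not pass. Of all genes tested, 3.17% were called lower in old females.

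Markers of other leukocytes were counted between old and young males in the same way, beside 25.3% higher and 3545 of 14390 lower over all genes tested. Of 15 tested T and NK cell markers, 14 were higher in old males than in young males and 1 did not pass, and the summed level of the 16 listed was 54.2 to 75.1 CPM in old males, against 10.7 to 12.6 CPM in young males. All 6 tested B and plasma cell markers were higher, with sums of 151 to 336 CPM in old males, against 9.49 to 14.5 CPM in young males, and Ms4a1 had no count in young males. Of 11 dendritic cell markers, 9 were higher and 2 did not pass, with sums of 52.3 to 75.2 CPM in old males, against 24.5 to 29.3 CPM in young males. Neutrophil markers summed to 75.0 to 135 CPM in old males, against 26.3 to 41.2 CPM in young males. Only Lcn2, which injured tubules also make, and Mmp9 could be tested there, with Lcn2 higher and Mmp9 lower, and Elane had no count in any old male library. Both tested mast cell markers were higher, with sums of 51.7 to 59.6 CPM in old males, against 32.3 to 36.7 CPM in young males, and Tpsab1 and Tpsb2 had no count in old males. Of 12 proximal tubule markers, 2 were higher and 9 lower, with sums of 8765 to 9253 CPM in old males, against 16585 to 18714 CPM in young males.

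In females the T and NK cell markers summed to 8.48 to 12.7 CPM in old females, against 10.6 to 15.6 CPM in young females. B and plasma cell markers summed to 16.3 to 32.4 CPM in old females, against 11.1 to 16.1 CPM in young females, so every old female library lay above every young one. Dendritic cell markers summed to 20.3 to 25.6 CPM in old females, against 20.02 to 29.1 CPM in young females. Several genes of the macrophage list, among them Ptprc, Laptm5, Tyrobp, Fcer1g, Irf8, Spi1 and Fcgr2b, are known to be used by these other leukocytes too. In the male comparison the summed inner medulla and urothelium markers were 66.5 to 78.6 CPM in old males, against 47.8 to 52.0 CPM in young males. Of 7 tested, 2 were higher and 1 lower, beside 25.3% higher and 3545 of 14390 lower over all genes tested. The part of the other cell types in the values above was not tested.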

How the data were processed

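Polyadenylated RNA of 16 rat kidney libraries was sequenced with a stranded kit, per the labels' protocols. The deposited table gives, per the file headers, a read count and an RPKM value for each gene and library. The build Rnor_6.0 and the tool edgeR 3.8.6 are named, with no role, in the submitters' processing notes. For the aligner, the counter and the strand setting the sources used here give nothing. The authors' deposited pairwise lists give log2 fold changes and p-value columns with false discovery rates, and were used only to set beside the values computed here.

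Counts were tested with edgeR 4.0.16 (R 4.3.3): genes were filtered by expression in groups, scaled with TMM factors and fitted with 1 mean per group over all 16 libraries. The quasi-likelihood test was two-sided and its p-values were adjusted by Benjamini-Hochberg over 14390 genes, which hold 99.9% of all counts. The standard error is the log2 fold change divided by the root of the F statistic. The common biological coefficient of variation was 0.130. CPM values are counts scaled to library size, and RPKM was used only for levels between genes. Exact intervals and floors of 3 counts cover counting error only. Replicates of a group differed by 6.28 to 49.5 chi-square units per degree of freedom, so no library was counted as a copy of another.

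The alternatives were limma-voom (limma 3.58.1), DESeq2 1.42.0, other scaling factors and filters, identifier prefix and inner medulla markers as covariates, DS libraries alone, a replicate block, stricter thresholds and each library left out. The procedure was tested on simulated data. All 32 listed genes are accounted for, and of each further list the 2 tested genes with the smallest adjusted p in old against young males may be named. The genes and lists were chosen with earlier results of these data known. Tables and figures were made with Python 3.11.15, pandas 2.3.3, scipy 1.17.1 and matplotlib 3.10.9.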

Additional observations from a re-analysis of the deposited data

Results flagged for a closer look

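The age change differed between the sexes for 24 of the 27 tested genes, with the female log2 change subtracted from the male one (edgeR quasi-likelihood test, adjusted p under 0.05 over all genes). Of all 14390 genes tested, 19.4% were called higher in this contrast, and 2777 genes were called lower. The lineage genes had values of 1.56 for Csf1r, 0.57 for Csf2ra, 2.54 for Spi1 and 2.65 for Irf8. Among the resident markers they were 1.56 for Adgre1, 2.37 for Siglec1, which passed the low-count filter through the old males alone, and 1.58 for Ms4a7. The scavenging and pattern receptors had values of 2.15 for Cd68, 3.41 for Trem2, 2.12 for Clec7a and 2.03 for Cd14. Fc receptors and adaptors had 1.30 for Fcgr1a, 3.70 for Fcgr2b, 1.05 for Fcgr3a, 2.47 for Tyrobp, 2.08 for Fcer1g and 2.72 for Lilrb4. The oxidase subunits had 1.88 for Cybb, 2.55 for Ncf1 and 2.40 for Ncf4. The pan-leukocyte and effector genes had 2.92 for Ptprc, 2.38 for Laptm5, 1.59 for Aif1 and 2.23 for Lyz2.

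A single library stood apart from the other 3 of its group for 2 genes. Spi1 was at 3.52 CPM in old female replicate 3, and at 1.56 to 1.79 CPM in the other old females. Without old female replicate 3, Spi1 was lower in old than in young females (log2 fold change -0.88, adjusted p = 0.0480 in edgeR), beside -0.54 (adjusted p = 0.276) with all libraries. Ncf4 was at 8.57 CPM in old male replicate 4, the DS library of that group, and at 6.22 to 6.57 CPM in the other old males. In all, 108 groups of 4 libraries were examined, and chance alone flags about 1 in 20.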

How the results depend on the processing

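The count of genes higher in old than in young males was 22 with a fold of at least 2 and 25 to 27 otherwise. Without single libraries the count of genes passed was 25 to 27 for old against young males, 22 to 26 for the age-by-sex contrast, 0 to 6 for old against young females and 3 to 6 for young males against young females. It was 27 for old males against old females without any single library. Over all genes these fits called 3275 to 3781 higher and 3192 to 3638 lower in old against young males. In the age-by-sex contrast they called 2601 to 2900 higher and 2426 to 2767 lower, and in old against young females 131 to 460 and 177 to 553. In old males against old females they called 3275 to 3782 higher and 3098 to 3504 lower, and in young males against young females 1758 to 2352 and 1862 to 2503. For old against young females the count of 2 was 1 with upper-quartile factors and with only these 2 groups fitted. Among other settings, it was 0 with limma-voom, the inner medulla covariate, an adjusted p under 0.01 or a fold of at least 2. The inner medulla covariate left 32 genes higher and 12 lower over all genes in that comparison. For young males against young females the count of 3 was 1 with the inner medulla covariate and 1 with a fold of at least 2. The replicate numbers were not taken to pair the libraries: same-numbered libraries had correlations of -0.13 to 0.19 over 16 pairs, with 2 above 0.1. Both of these were between young males and young females, replicate 1 at 0.12 and replicate 4 at 0.19, and a shared origin of such libraries was not tested. A replicate block gave 26 for old against young males, 3 for old against young females (Mrc1 at 1.06, adjusted p = 0.0153, and Cyba at 0.48, adjusted p = 0.0489, both higher, and Fcer1g lower, with Tyrobp at an adjusted p of 0.0561), 25 for the age-by-sex contrast (Mrc1 at 0.99, adjusted p = 0.0167), 27 for old males against old females and 3 for young males against young females. Over all genes the block called 3649 higher and 3596 lower in old against young males, and 389 and 448 in old against young females. It called 2789 higher and 2864 lower in the age-by-sex contrast, and 3677 and 3457 in old males against old females. Between young males and young females the block called 2333 higher and 2250 lower. Directions turned round for values near 0. For Cyba the age-by-sex value was 0.19 with library totals and 0.15 with DS libraries alone. Csf2ra between old and young females was -0.036 with library totals alone, -0.00016 with the prefix covariate, -0.16 with the inner medulla covariate, -0.10 with DS libraries alone, and -0.073 to 0.073 without single libraries. In that comparison Msr1 was 0.0071 with limma-voom, 0.13 with the prefix covariate, and -0.34 to 0.088 without single libraries. There, without single libraries, Cd14 was -0.035 to 0.26 and Fcgr1a -0.022 to 0.28. Between old and young females Laptm5 was 0.079 with the inner medulla covariate and 0.013 with DS libraries alone, and Lyz2 was 0.050 with the inner medulla covariate and 0.017 with DS libraries alone. Library totals alone moved the median of all genes to 0.32 in old against young males, 0.37 in the age-by-sex contrast, 0.21 in old males against old females and -0.17 in young males against young females. In old against young males they gave 7849 genes higher and 1329 lower, and upper-quartile factors 4484 and 2699, beside 3644 and 3545. In the age-by-sex contrast they gave 6677 and 898, and upper-quartile factors 3347 and 2044, beside 2786 and 2777. The cause of these changes was not tested. An age-by-sex value from only 2 groups cannot be had. Depth limits Cd163, Vsig4 and Marco, which had too few counts for a test.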
